A study of Rattus norvegicus with 12 samples.

Results

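Astrocytes are joined by gap junctions, clear glutamate from synapses and exchange water and ions with blood vessels at their endfeet, and 9 genes of these tasks were followed here after stroke in the rat brain. They are Gja1, Gjb6, Aqp4, Slc1a2, Slc1a3, Glul, Aldh1l1, Fgfr3 and Acacb, taken by name as genes of astrocyte coupling, transport and metabolism from a count table of 37209 gene symbols. All 9 were among the 17008 genes with enough counts to be tested. The 12 libraries came from brain of Sprague Dawley rats at postnatal day 21, in 4 groups of 3. A first stroke group had a middle cerebral artery occlusion (MCAO), which blocks a main artery of the cerebral hemisphere, and a second had a pontine infarction (PI), a stroke of the pons in the brainstem. A pair of groups labelled sham carry the codes LN and PN, and no other agent or allele is named for any group. Sham LN was set against MCAO and sham PN against PI because the codes share a first letter. Brain is the only tissue named, and the sources used here state neither a dissected region nor how long after a stroke it was taken. Each stroke is said to have been made in 3 rats, with nothing more on which samples were separate animals, so a p-value here measures the spread between samples, which may be technical. The code of 1 MCAO column has a number that no title has, and that column is the unnumbered library in what follows.

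Gja1 and Gjb6 encode the connexins Cx43 and Cx30, which form the channels that couple astrocytes into a network through which ions and small metabolites pass. Slc1a3 (GLAST or EAAT1) and Slc1a2 (EAAT2) are the sodium-driven transporters by which astrocytes remove glutamate, and glutamine synthetase, the product of Glul, turns that glutamate and ammonia into glutamine, which returns to neurons. Aqp4 is the water channel of the endfeet, Aldh1l1 a cytosolic folate enzyme widely used as an astrocyte marker, Fgfr3 a receptor for fibroblast growth factors, and Acacb the acetyl-CoA carboxylase whose product malonyl-CoA blocks the entry of fatty acids into mitochondria.

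In short, 6 of the 9 genes were lower after MCAO (Gja1, Gjb6, Slc1a3, Aldh1l1, Fgfr3 and Acacb). After PI, 1 was lower (Fgfr3) and 1 higher (Glul). The CPM of the groups did not overlap, with every stroke library the lower, for 7 of the 9 genes after MCAO and for 4 after PI, beside 18.7% of tested genes after MCAO and 18.7% after PI. Passing means a Benjamini-Hochberg adjusted p under 0.05 over all tested genes by edgeR's quasi-likelihood test, which is the source of every adjusted p below unless another tool is named. By that test 18.6% of all tested genes passed after MCAO, 12.5% upward and 6.07% downward, and 4.08% passed after PI, 3.21% upward and 0.870% downward. These shares changed with 1 library left out. After MCAO 35.2% passed without MCAO replicate 2, and 6.56% to 8.92% without any other MCAO or sham LN library. After PI 5.6% passed without PI replicate 2, and 0.0347% to 2.46% without any other PI or sham PN library. The median log2 change of the 9 genes was -0.66 after MCAO, where the median of all tested genes was -0.0018, and -0.30 after PI, where that of all tested genes was -0.08. Levels are counts scaled to library size and composition (CPM), and in bulk tissue fewer cells of a type and less RNA per cell cannot be told apart.

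Libraries held 19805815 to 40400676 counts. Some stood apart from their groups. In MCAO replicate 1, 9 choroid plexus markers summed to 1098 CPM, against 1.78 to 27.7 CPM in the other 11 libraries. In PI replicate 3, 11 cerebellar markers summed to 1112 CPM, against 73.2 to 203 CPM elsewhere. MCAO replicate 2 and PI replicate 2 lay nearest their shams: 11 markers of infiltrating myeloid cells summed to 213 and 206 CPM there, to 962 to 2389 CPM in the other stroke libraries and to 34.1 to 43.9 CPM in the shams. Of 13 markers of the telencephalon 11 were higher in sham LN than in sham PN, and of 11 tested hindbrain markers 10 were lower (the labels give the shams no region of their own). All 24 general astrocyte markers outside the 9 genes were detected in every library.

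The promoter windows of Gja1, Gjb6 and Glul are printed because they belong to the connexin pair that fell together after MCAO and to the gene that rose after PI. They are RefSeq windows on the assembly GRCr8 of 250 bases before and 50 after the annotated start, 5′ to 3′ on the gene's strand, of which Gjb6 and Glul have more than one. Capitals mark the AP-1 site TGAGTCA, the GC box GGGCGG and the CCAAT box, on either strand.
Gja1, chr20:36302314-36302613, plus strand: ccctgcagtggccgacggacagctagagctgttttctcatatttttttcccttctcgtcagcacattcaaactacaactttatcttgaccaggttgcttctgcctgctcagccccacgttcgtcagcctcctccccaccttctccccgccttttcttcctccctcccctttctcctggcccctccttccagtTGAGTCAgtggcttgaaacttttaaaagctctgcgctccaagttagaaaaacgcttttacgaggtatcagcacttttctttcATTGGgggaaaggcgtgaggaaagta
Gjb6, chr15:35410089-35410388, minus strand: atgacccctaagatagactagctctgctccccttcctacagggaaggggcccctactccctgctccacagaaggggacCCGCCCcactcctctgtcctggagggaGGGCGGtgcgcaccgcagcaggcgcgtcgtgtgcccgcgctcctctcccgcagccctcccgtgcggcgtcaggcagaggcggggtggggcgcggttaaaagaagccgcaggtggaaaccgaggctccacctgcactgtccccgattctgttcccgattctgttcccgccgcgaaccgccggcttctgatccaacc
Glul, chr13:68575816-68576115, plus strand: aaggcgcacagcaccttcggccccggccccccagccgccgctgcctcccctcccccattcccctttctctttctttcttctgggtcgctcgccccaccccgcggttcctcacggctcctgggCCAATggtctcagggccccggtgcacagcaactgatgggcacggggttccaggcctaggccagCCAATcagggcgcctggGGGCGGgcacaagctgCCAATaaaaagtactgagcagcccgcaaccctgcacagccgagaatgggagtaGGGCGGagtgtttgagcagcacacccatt

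The Gja1 window holds 1 AP-1 site, which starts 58 bases before the gene's start, and 1 CCAAT box on the other strand. AP-1 sites stand in 4.63% of the 33469 windows of the same length in the table, and among the 15 windows of the 9 genes in 1. The Gjb6 window holds 2 GC boxes, and the Glul window holds 2 GC boxes and 3 CCAAT boxes. GC boxes stand in 33.1% of all windows and in 8 of the 15, and CCAAT boxes in 37.5% of all windows and in 7 of the 15. The STAT site TTCNNNGAA and the SOX site AACAAT, searched on both strands in the same way, are in 0 of the 15 windows and in 8.87% and 11.7% of all. No marked match overlaps another, and a match is a run of letters, not a measured binding site.

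The connexins were lower after MCAO, and Gjb6 lost more of its level than Gja1. Gja1 stood at 455, 382 and 468 CPM in sham LN replicates 1 to 3, and at 181, 249 and 162 CPM in MCAO replicate 1, MCAO replicate 2 and the unnumbered library, the order kept below. Every MCAO library lay below every sham. Gja1 fell by 1.14 on the log2 scale (SE 0.18, adjusted p = 0.00304), which left 45.5% of the sham level. Gjb6 stood at 48.4, 51.5 and 41.8 CPM in sham LN, and at 3.46, 18.3 and 5.13 CPM after MCAO. The groups did not overlap, and MCAO replicate 2 kept several times the level of the other 2 stroke libraries. Gjb6 fell by 2.40 (SE 0.48, adjusted p = 0.00796), to 18.9% of the sham level. Without MCAO replicate 2 its log2 change was -3.55, and on the compared libraries alone it did not pass (adjusted p = 0.053).

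After PI neither connexin passed. Gja1 stood at 475, 472 and 420 CPM in sham PN and at 410, 499 and 366 CPM after PI, and these groups overlap (log2 change -0.10, SE 0.18, adjusted p = 0.778). The 95% interval of that change ran from -0.49 to 0.29. Gjb6 stood at 79.0, 74.2 and 85.8 CPM in sham PN and at 40.2, 54.8 and 65.5 CPM after PI. All 3 PI libraries were below all 3 shams, yet the change of -0.57 (SE 0.45) had an adjusted p of 0.484. Over the 4 groups the mean level of Gja1 ran 456 ± 30.9 CPM in sham PN, 435 ± 46.2 in sham LN, 425 ± 67.7 after PI and 198 ± 45.8 after MCAO (SD, n = 3 each). Only the MCAO group lay apart from its neighbour in that order.

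The proportion of the connexins shifted within libraries. Per 100 counts of Gja1 there were 11.02 ± 2.30 counts of Gjb6 in sham LN (8.93 to 13.5) and 4.13 ± 2.83 after MCAO (1.91 to 7.32), and these ranges do not overlap. In sham PN the value was 17.6 ± 2.499 and after PI 12.9 ± 4.36, with overlapping ranges of 15.7 to 20.4 and 9.81 to 17.9. With 3 libraries a group an exact two-sided permutation test cannot go below p = 0.1, so the ratios are given without a test. They compare libraries, not the abundance of one connexin with the other, since counts are not per length.

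**Figure D1:**
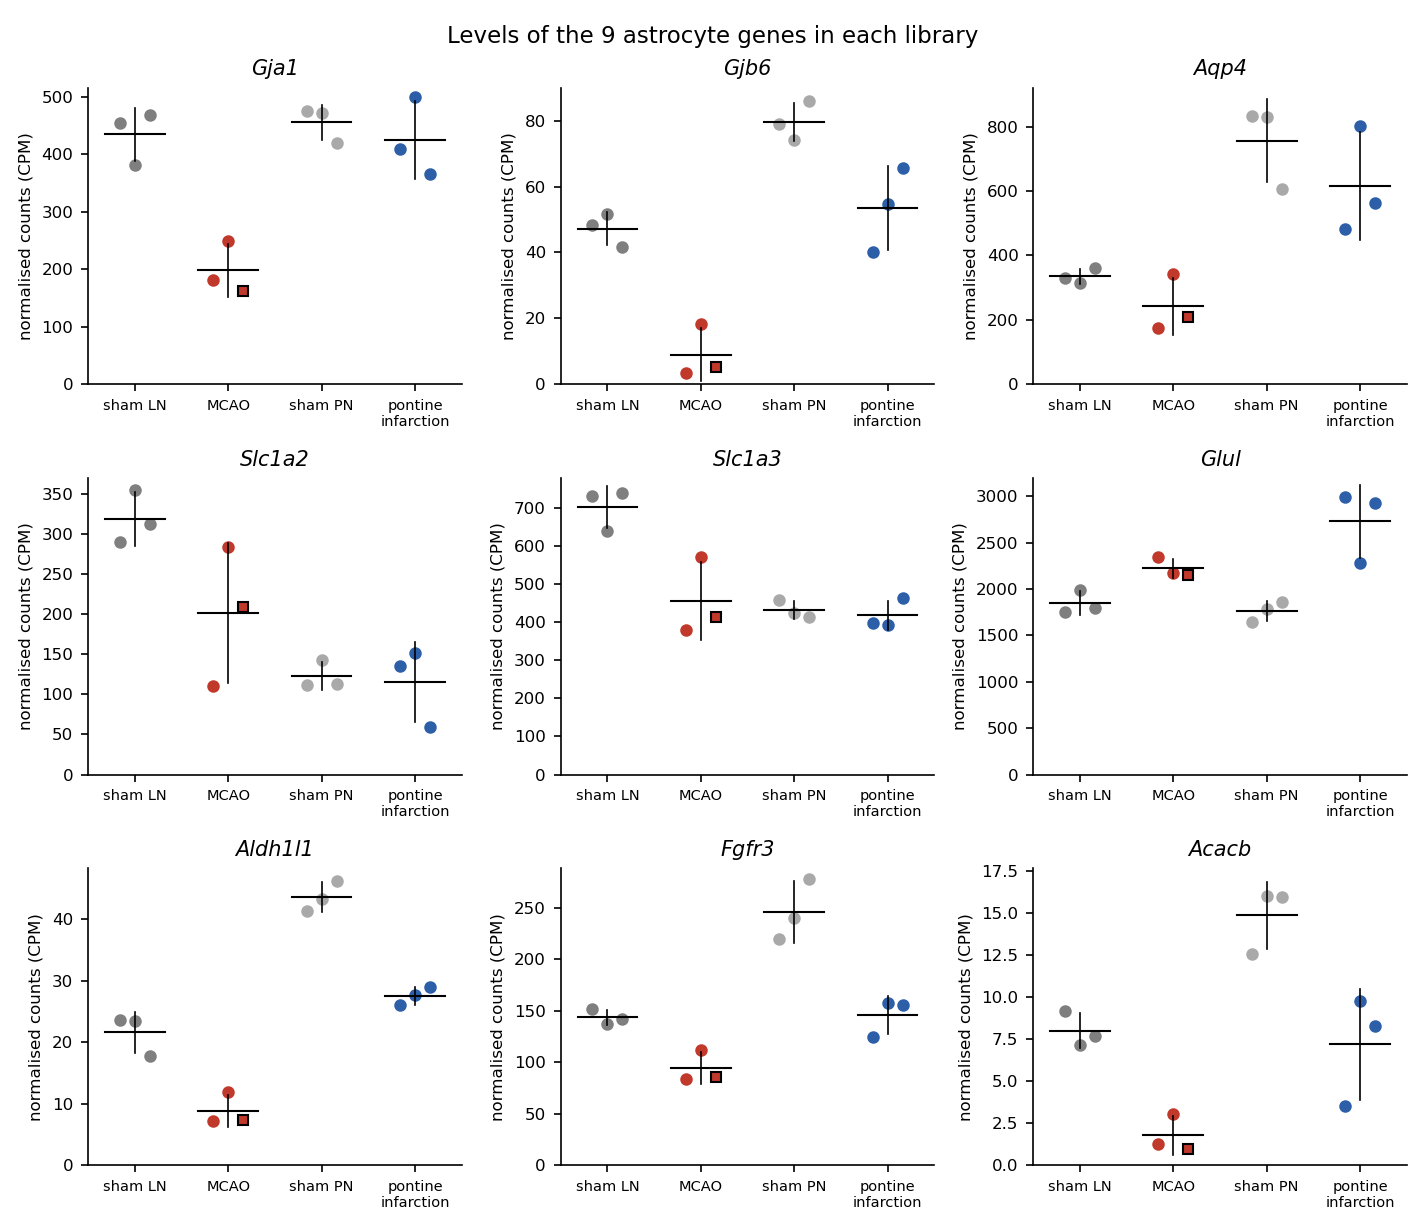
Level of each of the 9 genes (y axis, CPM from 0) in every library by group (x axis: sham LN, MCAO, sham PN, PI), with each point 1 library (square: the unnumbered MCAO library), a horizontal bar for the mean and a vertical bar for the SD. Gja1, Gjb6, Slc1a2, Slc1a3, Aldh1l1, Fgfr3 and Acacb have all 3 MCAO libraries below all 3 sham LN libraries, as for 18.7% of tested genes. Gjb6, Aldh1l1, Fgfr3 and Acacb have all 3 PI libraries below all 3 sham PN libraries, as for 18.7% of tested genes. Glul is above every sham after MCAO and after PI, as for 20.4% and 13.3% of tested genes.

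Of 12 other connexin, pannexin and junction genes tested, 2 rose and 2 fell after MCAO, and 8 did not pass, with a median log2 change of 0.14. Gja5, a connexin of arterial endothelium, rose from a mean of 0.433 to 3.95 CPM (log2 change 3.16). Gja5 and the genes given below by log2 change alone are outside the naming rule and were chosen after their values were seen. Gjc3, a connexin of oligodendrocytes, fell from 13.1 ± 0.148 to 4.08 ± 1.30 CPM (log2 change -1.68, SE 0.34, adjusted p = 0.00817). Beside the fall of Gjc3, 7 of 11 tested oligodendrocyte markers fell after MCAO and their summed level, 15620 to 22110 CPM in sham LN, was 7718 to 12119 CPM. The part of that shift in the Gjc3 values was not tested. After PI 0 of the 12 junction genes passed, and 1 did without PI replicate 2, where 5.6% of all tested genes did.

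Aqp4 did not pass in either stroke comparison. It stood at 330, 314 and 361 CPM in sham LN and at 175, 342 and 208 CPM after MCAO. MCAO replicate 2 was within the sham range and the other 2 were below it, for a log2 change of -0.47 (SE 0.26, adjusted p = 0.21). Without MCAO replicate 2 the change was -0.90 and passed (adjusted p = 0.00967), in a fit where 18.8% of all tested genes passed as lower. In sham PN it stood at 833, 829 and 608 CPM and after PI at 481, 803 and 563 CPM, with overlap and a log2 change of -0.30 (SE 0.26, adjusted p = 0.529). The water channel kept more of its level than Gja1 in the MCAO libraries: per 100 counts of Gja1 there were 77.2 ± 4.83 counts of Aqp4 in sham LN (72.4 to 82.1) and 121 ± 21.4 after MCAO (96.3 to 137), without overlap. In sham PN that ratio was 165 ± 17.8 and after PI 144 ± 23.3, with overlap.

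Among 16 tested endfoot genes for water, potassium and adhesion, 5 fell and 1 rose after MCAO and 10 did not pass, at a median log2 change of -0.62. Agrn, a proteoglycan of the basal lamina that helps place Aqp4, fell from 234 ± 7.27 to 111 ± 67.0 CPM (log2 change -1.08, SE 0.31, adjusted p = 0.0352). Trpv4, an osmosensitive calcium channel, rose from 0.593 ± 0.103 to 6.33 ± 5.41 CPM (log2 change 3.41, SE 0.93, adjusted p = 0.0285). Hepacam (-0.82), Atp1b2 (-0.72) and Mlc1 (-0.69) also fell, all proteins of the astrocyte membrane. As many as 11 fell without MCAO replicate 2, and leaving out any other MCAO or sham LN library left 1 to 3. Of all tested genes 18.8% passed as lower without MCAO replicate 2, and 1.15% to 2.74% without any of those others. The number of the 16 that rose ran from 0 to 2 with 1 library left out. After PI 1 of the 16 passed, as lower. With any of the 3 sham PN libraries or PI replicate 1 left out, 0 of the 16 passed, where 0.0347% to 2.46% of all tested genes did.

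Both glutamate transporters lay lower in every MCAO library than in any sham LN library, and Slc1a3 passed. Slc1a3 stood at 730, 640 and 740 CPM in sham LN and at 380, 571 and 414 CPM after MCAO. The highest of these, MCAO replicate 2, was still under the lowest sham, and Slc1a3 fell by 0.63 (SE 0.16, adjusted p = 0.0219). Slc1a2 stood at 290, 355 and 312 CPM in sham LN and at 111, 285 and 209 CPM after MCAO. MCAO replicate 2 lay just under the lowest sham, and the change of -0.66 (SE 0.35) did not pass (adjusted p = 0.199). Between MCAO libraries the CPM of Slc1a2 had an SD of 87.2 on a mean of 201, and that of Slc1a3 an SD of 102 on a mean of 455.

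Both transporter results turned on single libraries. The call for Slc1a3 was lost without sham LN replicate 1, sham LN replicate 3 or the unnumbered MCAO library (adjusted p = 0.0772, 0.0762 and 0.0843). In those fits 6.56%, 7.26% and 8.68% of all tested genes passed. Without MCAO replicate 2 the call for Slc1a3 stood, and Slc1a2 passed with a log2 change of -1.09 (adjusted p = 0.0379). In that fit 35.2% of all tested genes passed. Per 100 counts of Slc1a3 there were 45.8 ± 8.51 counts of Slc1a2 in sham LN and 43.1 ± 12.1 after MCAO, with overlapping ranges.

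After PI neither transporter passed, and their directions were not settled. Slc1a3 stood at 459, 424 and 413 CPM in sham PN and at 397, 393 and 463 CPM after PI (log2 change -0.048, SE 0.16, adjusted p = 0.889). Slc1a2 stood at 112, 143 and 113 CPM in sham PN and at 136, 152 and 59.2 CPM after PI (log2 change -0.085, SE 0.35, adjusted p = 0.913). PI replicate 3, the library with the cerebellar markers, was the lowest for Slc1a2, and without it the change was 0.23. The sign of both genes also turned with other scaling. The 95% intervals ran from -0.40 to 0.30 for Slc1a3 and from -0.86 to 0.68 for Slc1a2, so for Slc1a2 a change past 1.5-fold either way lay within the interval.

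Glul was the member whose level was higher in stroke. It stood at 1642, 1786 and 1863 CPM in sham PN and at 2990, 2280 and 2927 CPM after PI. Every PI library was above every sham, as for 13.3% of tested genes, and Glul rose 1.55-fold (log2 change 0.63, SE 0.15, adjusted p = 0.0369). The call rested on the full set: without sham PN replicates 1, 2 and 3 the adjusted p was 0.11, 0.147 and 0.126, and without PI replicates 1 and 3 it was 0.113 and 0.102, while it passed without PI replicate 2. Of all tested genes 1.04%, 0.301% and 0.0347% passed without sham PN replicates 1, 2 and 3. The share was 2.46% and 1.78% without PI replicates 1 and 3, and 5.6% without PI replicate 2. Over these 6 fits the log2 change ran from 0.56 to 0.75.

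After MCAO Glul stood at 2342, 2179 and 2157 CPM against 1757, 1996 and 1800 CPM in sham LN. The groups did not overlap, as for 20.4% of tested genes with the stroke libraries higher, and the log2 change of 0.27 (SE 0.15) did not pass (adjusted p = 0.212). Glul was also set against each of the glutamate transporters within libraries. Per 100 counts of Slc1a3 there were 265 ± 40.3 counts of Glul in sham LN (241 to 312) and 506 ± 118 after MCAO (381 to 617), and 410 ± 47.7 in sham PN (358 to 451) and 655 ± 88.2 after PI (581 to 753), and neither pair of ranges overlaps. Per 100 counts of Slc1a2 there were 562 to 607 counts of Glul in sham LN and 766 to 2119 after MCAO, without overlap, but 1252 to 1649 in sham PN and 1504 to 4940 after PI, which overlap. The lack of overlap after MCAO adds nothing for either ratio. Every MCAO library was already above every sham LN library for Glul and below for both transporters. Glul is also expressed by oligodendrocytes, and the summed oligodendrocyte markers were lower in both stroke groups, 28009 to 30228 CPM after PI against 43321 to 53771 CPM in sham PN. The part of that shift in the Glul values was not tested.

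**Figure D2:**
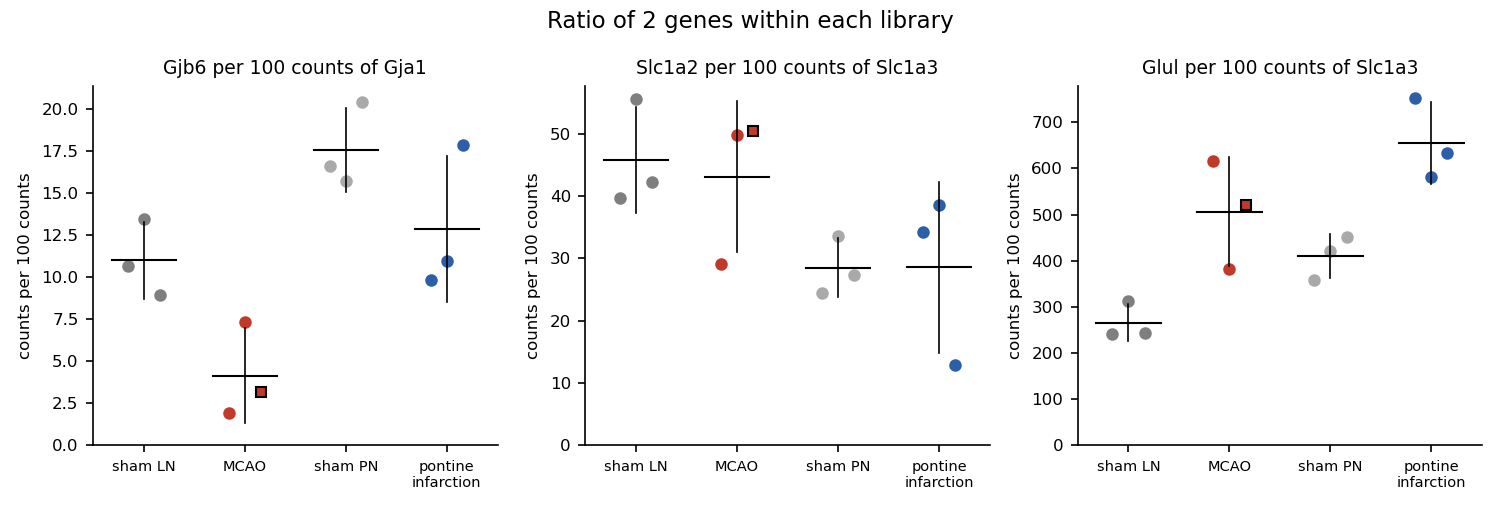
Ratios of 3 pairs of the genes within each library (y axis, counts of the first gene per 100 counts of the second, from 0) by group (x axis), with each point 1 library (square: the unnumbered MCAO library), a horizontal bar for the mean and a vertical bar for the SD. Gjb6 per Gja1 is lower and Glul per Slc1a3 higher in all 3 MCAO libraries than in all 3 sham LN libraries, and Glul per Slc1a3 is also higher in all 3 PI libraries than in sham PN. For Glul per Slc1a3 after MCAO this follows from the levels of the genes themselves.

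Around these genes, 15 other amino acid transporters were tested, of which 5 fell and 3 rose after MCAO and 7 did not pass (median log2 change -0.94). Slc38a3, which exports glutamine from astrocytes, fell from 109 ± 9.03 to 37.1 ± 21.7 CPM (log2 change -1.55, SE 0.37, adjusted p = 0.0174). Slc6a11, the astrocyte GABA transporter, fell from 97.2 ± 8.08 to 35.2 ± 20.4 CPM (log2 change -1.46, SE 0.40, adjusted p = 0.0274). Slc1a5, a neutral amino acid exchanger, rose from 3.02 ± 0.536 to 19.3 ± 9.501 CPM (log2 change 2.67, SE 0.38, adjusted p = 0.00238). It also rose after PI, from 5.07 ± 1.08 to 15.8 ± 3.66 CPM (log2 change 1.63, SE 0.37, adjusted p = 0.0321), as the sole transporter of the 15 to pass there. After MCAO Slc25a18 (-1.35) and Slc6a9 (-1.05) fell as well, and Slc3a2 (0.83) and Slc38a2 (0.82) rose. With 1 library left out, 1 to 9 of the 15 fell and 1 to 3 rose after MCAO, with 9 falling without MCAO replicate 2, 4 without MCAO replicate 1, and 1 or 2 without any of the others. Of all tested genes 18.8%, 2.74% and 1.15% to 2.43% passed as lower in these fits in turn. After PI 0 of the 15 passed when any 1 library other than PI replicate 2 was left out, where 0.0347% to 2.46% of all tested genes did.

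Of 15 enzymes of glutamate, glutamine and ammonia, 6 fell and 0 rose after MCAO (median log2 change -0.54). Prodh, the proline dehydrogenase, fell from 61.7 ± 8.55 to 23.6 ± 7.49 CPM (log2 change -1.39, SE 0.20, adjusted p = 0.00244). Psat1, an enzyme of serine synthesis that uses glutamate, fell from 181 ± 13.3 to 70.5 ± 25.5 CPM (log2 change -1.36, SE 0.22, adjusted p = 0.00317). Aldh5a1, an enzyme of the GABA breakdown pathway, fell from 174 ± 5.26 to 93.4 ± 36.4 CPM (log2 change -0.89, SE 0.25, adjusted p = 0.0294). The number falling was 11 without MCAO replicate 2 and 2 without the unnumbered library or any 1 sham LN library. Of all tested genes 18.8% passed as lower without MCAO replicate 2, and 1.15% to 2.43% in those other fits. After PI 1 of the 15 passed, Got1, the cytosolic aspartate aminotransferase, which fell from 482 ± 83.5 to 301 ± 24.4 CPM (log2 change -0.68, SE 0.15, adjusted p = 0.033). Got1 was also among the 6 after MCAO (-0.59), with Gls2 (-0.78) and Oat (-0.54). After PI 0 of the 15 passed without sham PN replicate 2, sham PN replicate 3, PI replicate 1 or PI replicate 3, and 2 without PI replicate 2. The share of all tested genes was 0.0347% to 2.46% in the former fits and 5.6% without PI replicate 2.

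Aldh1l1 was lower in both stroke groups and passed after MCAO. It stood at 23.6, 23.5 and 17.7 CPM in sham LN and at 7.22, 11.8 and 7.35 CPM after MCAO, without overlap, and fell by 1.29 (SE 0.20, adjusted p = 0.0029) to 40.8% of the sham level. In sham PN it stood at 41.4, 43.3 and 46.3 CPM and after PI at 26.0, 27.7 and 29.0 CPM. The PI libraries lay close together and below every sham, yet the change of -0.66 (SE 0.20) had an adjusted p of 0.0813. DESeq2 called it (log2 change -0.63, adjusted p = 0.028), but that tool called 1738 of 17008 genes after PI, where edgeR called 694. The 4 groups took an order without overlap between neighbours, from sham PN (43.7 ± 2.46 CPM) over PI (27.6 ± 1.48) and sham LN (21.6 ± 3.37) to MCAO (8.80 ± 2.63). Lower without overlap were 18.7% of tested genes after MCAO, 18.7% after PI and 29.2% in sham LN against sham PN. How many genes take the whole order was not counted.

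The folate and one-carbon enzymes did not share that direction as a list. Of 18 tested, 5 rose and 2 fell after MCAO, with a median log2 change of 0.16. Aldh1l2, the mitochondrial counterpart of Aldh1l1, rose from 0.668 ± 0.468 to 7.31 ± 5.32 CPM (log2 change 3.42, SE 0.73, adjusted p = 0.0106). Mthfd2, a mitochondrial folate dehydrogenase, rose from 5.64 ± 0.0921 to 15.04 ± 5.55 CPM (log2 change 1.41, SE 0.27, adjusted p = 0.00655). Cbs, which commits homocysteine to cysteine synthesis, fell from 73.7 ± 3.95 to 25.3 ± 4.32 CPM (log2 change -1.54, SE 0.22, adjusted p = 0.00244). Mthfd1l (1.05), Shmt2 (0.83) and Mat2a (0.62) rose as well, and Gldc (-0.61) fell. With 1 library left out 2 to 5 rose and 1 to 4 fell, the fewest rising without sham LN replicate 2, MCAO replicate 1 or the unnumbered library. The share of all tested genes that passed was 8.92%, 8.18% and 8.68% in those fits in turn, against 18.6% with all libraries. After PI 1 of the 18 passed, Shmt1, the cytosolic serine hydroxymethyltransferase, from 1.87 ± 0.343 to 6.69 ± 3.02 CPM (log2 change 1.83, SE 0.35, adjusted p = 0.0191), and 0 did without PI replicate 3 or any of the 3 sham PN libraries. The share of all tested genes was 0.0347% to 1.78% in those fits.

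Fgfr3 was the one member that passed as lower in both strokes. Gjb6, Aldh1l1 and Acacb also lay below every sham in both, without passing after PI. It stood at 151, 137 and 142 CPM in sham LN and at 84.0, 112 and 86.1 CPM after MCAO, without overlap, and fell by 0.61 (SE 0.15, adjusted p = 0.0193). In sham PN it stood at 219, 241 and 278 CPM and after PI at 125, 158 and 156 CPM, again without overlap, and fell by 0.75 (SE 0.15, adjusted p = 0.0222). It kept 65.5% of the sham level after MCAO and 59.4% after PI. The calls were not firm: the adjusted p rose to 0.0754, 0.0601 and 0.0751 after MCAO when sham LN replicate 1, sham LN replicate 3 or the unnumbered library was left out, and to 0.0939, 0.116 and 0.0714 after PI when sham PN replicate 2, sham PN replicate 3 or PI replicate 1 was. In those fits 6.56%, 7.26% and 8.68% of all tested genes passed after MCAO, and 0.301%, 0.0347% and 2.46% after PI.

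Of 22 other FGF receptors, ligands and feedback targets tested, 4 rose and 1 fell after MCAO and 17 did not pass (median log2 change 0.25). Fgf1, a ligand of all FGF receptors, rose from 6.59 ± 1.13 to 29.7 ± 22.7 CPM (log2 change 2.17, SE 0.51, adjusted p = 0.0152). Fgfrl1, a receptor-like protein without a kinase, rose from 17.4 ± 2.41 to 37.5 ± 5.25 CPM (log2 change 1.11, SE 0.19, adjusted p = 0.00409). Spry1, a feedback inhibitor of FGF signalling, rose from 3.24 ± 0.402 to 7.74 ± 2.39 CPM (log2 change 1.25, SE 0.35, adjusted p = 0.03). Fgfrl1 also rose after PI, from 15.8 ± 0.838 to 45.0 ± 9.94 CPM (log2 change 1.51, SE 0.19, adjusted p = 0.00508), where 2 of the 22 rose, the other being Fgf2 (2.46), and 0 fell. After MCAO the remaining riser was Fgfr1 (0.82), and Fgf22 (-1.29) fell. With 1 library left out the number rising after MCAO ran from 1 to 9, the most without MCAO replicate 2 and the fewest without MCAO replicate 1, sham LN replicate 1 or sham LN replicate 3. The number falling was 5 without MCAO replicate 2, 2 without MCAO replicate 1 and 0 without the unnumbered library or any 1 sham LN library. Of all tested genes 35.2% passed in either direction without MCAO replicate 2, and 6.56% to 8.92% without any other MCAO or sham LN library. After PI the number rising was 0 without sham PN replicate 3, 3 without PI replicate 2 and 1 or 2 without the others. The share of all tested genes that passed was 0.0347%, 5.6% and 0.301% to 2.46% in those fits in turn.

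Acacb had the lowest counts of the 9 genes and a large fall. It stood at 9.19, 7.15 and 7.69 CPM in sham LN and at 1.25, 3.06 and 0.967 CPM after MCAO. No libraries overlapped, and Acacb fell by 2.19 (SE 0.45, adjusted p = 0.00879) to 21.97% of the sham level. Without MCAO replicate 2 the change was -2.94. In sham PN it stood at 12.6, 16.1 and 16.0 CPM and after PI at 3.49, 9.78 and 8.30 CPM. Here too every stroke library was below every sham, but the change of -1.04 (SE 0.42) had an adjusted p of 0.174. PI replicate 1 was the lowest of the PI libraries for Acacb and Gjb6 alike.

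Among 22 tested genes of malonyl-CoA and fatty acid oxidation, 4 fell and 0 rose after MCAO (median log2 change -0.16). Ppara, a nuclear receptor for fatty acids, fell from 9.87 ± 0.410 to 4.45 ± 1.42 CPM (log2 change -1.15, SE 0.28, adjusted p = 0.0174). Acsl6, an acyl-CoA synthetase, fell from 220 ± 8.90 to 138 ± 26.1 CPM (log2 change -0.68, SE 0.20, adjusted p = 0.0358). Acsbg1 (-0.65), another acyl-CoA synthetase, fell as well. After MCAO 0 of the 22 passed without sham LN replicate 1 or the unnumbered library, where 6.56% and 8.68% of all tested genes did. After PI 1 passed, Fasn, the fatty acid synthase that uses malonyl-CoA, from 860 ± 207 to 447 ± 90.2 CPM (log2 change -0.95, SE 0.21, adjusted p = 0.034), and 0 did without sham PN replicate 2, sham PN replicate 3, PI replicate 1 or PI replicate 3. The share of all tested genes was 0.0347% to 2.46% in those fits.

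**Figure D3:**
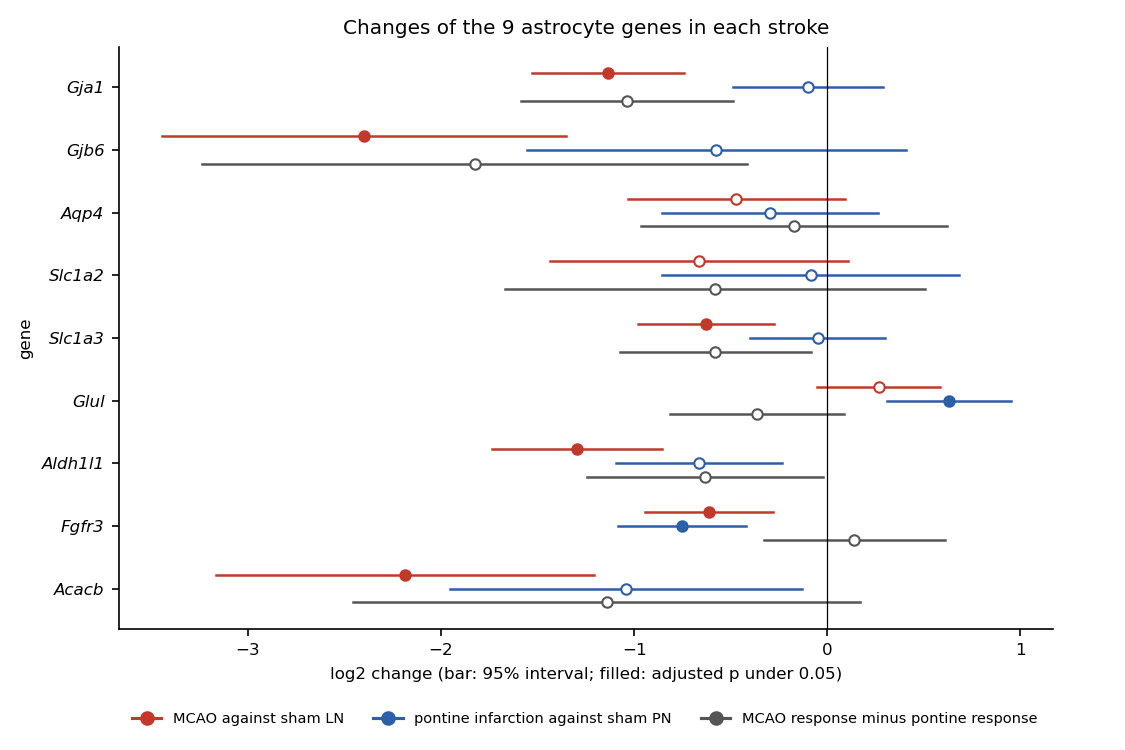
Log2 change of each of the 9 genes (y axis) after MCAO and after PI against the matched shams, and the MCAO change minus the PI change (x axis), as points with 95% intervals, filled where the adjusted p is under 0.05. Gjb6 and Acacb lie farthest below 0 after MCAO, at -2.40 and -2.19, Glul is above 0 in both strokes, and no point of the difference is filled.

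Stroke libraries of a group differed in how far the 9 genes lay from their shams. The median over the 9 genes of a library's log2 difference from its sham mean was -1.26 in MCAO replicate 1, -0.76 in the unnumbered library and -0.36 in MCAO replicate 2. It was -0.64, -0.13 and -0.41 in PI replicates 1 to 3. MCAO replicate 2 and PI replicate 2, which stand nearest 0, are the libraries with the lowest myeloid sums of their groups. They also had the lowest summed level of 22 reactive astrocyte markers among their group, 4725 CPM against 10489 and 6514 in the other MCAO libraries, and 4622 CPM against 8680 and 8617 in the other PI libraries. Shams had 511 to 657 CPM (LN) and 1678 to 1886 CPM (PN). The part of these shifts in the members' values was not tested. With MCAO replicate 2 left out, 8 of the 9 genes passed as lower, in a fit where 18.8% of all tested genes did. With sham LN replicate 1, sham LN replicate 3 or the unnumbered library left out 4 did, namely Gja1, Gjb6, Aldh1l1 and Acacb, which passed in all 6 such fits, and 1.15%, 1.69% and 1.42% of all tested genes passed as lower without those 3 libraries in turn. On the 6 compared libraries alone Gja1, Aldh1l1 and Acacb passed, where 1.46% of all tested genes did as lower, and Gjb6 (adjusted p = 0.053), Slc1a3 (0.0856) and Fgfr3 (0.053) did not. After PI, 0 to 2 of the 9 passed with 1 library left out, 0 without sham PN replicate 2, sham PN replicate 3 or PI replicate 1. In those fits in turn 0.301%, 0.0347% and 2.46% of all tested genes passed, against 4.08% with all libraries.

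**Figure D4:**
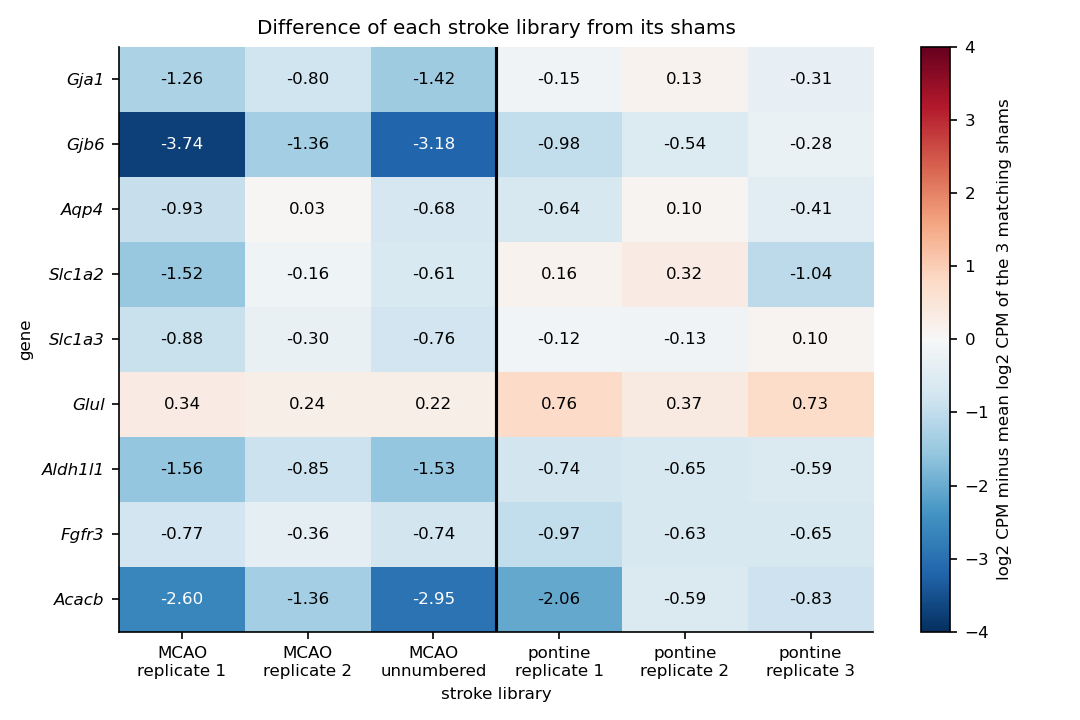
Log2 difference of each of the 9 genes (rows) in each stroke library (columns) from the mean of its sham group, on a colour scale centred at 0. The median over the 9 genes is lowest in MCAO replicate 1 (-1.26) and nearest 0 in PI replicate 2 (-0.13).

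Whether the strokes differ was tested as an interaction, the MCAO change minus the PI change, with no library shared between them. None of the 9 genes passed, and 0% of all tested genes did. At an unadjusted p under 0.05 there were 4 of the 9 and 1826 of 17008 genes. DESeq2 called 1 of the 9 and 238 genes in all, and limma voom 0. The largest differences were in Gjb6 (-1.83, SE 0.64, adjusted p = 0.368), Acacb (-1.14, SE 0.60, adjusted p = 0.527) and Gja1 (-1.04, SE 0.25, adjusted p = 0.261). Gja1 was the gene that DESeq2 called (-1.11, adjusted p = 0.00795). For Slc1a3 the difference was -0.58 (SE 0.23, adjusted p = 0.404) and for Aldh1l1 -0.63 (SE 0.28, adjusted p = 0.45). With MCAO replicate 2 left out, 5 of the 9 passed (Gja1, Gjb6, Slc1a3, Aldh1l1 and Acacb), all in the direction of a lower level after MCAO, beside 5.53% of all tested genes in that fit and 3.44% in that direction. For Fgfr3 the difference was 0.14 (95% interval -0.33 to 0.61) and for Glul -0.37 (-0.82 to 0.086), both short of the threshold.

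The sham groups themselves differed for 5 of the 9 genes, in a comparison where 21.3% of all tested genes passed. In CPM, 2 of the 9 lay higher in every sham LN library than in any sham PN library and 5 lower, beside 21.7% and 29.2% of tested genes. The glutamate transporters were higher in sham LN. Slc1a2 was 2.60-fold higher, at 319 ± 33.4 CPM against 123 ± 17.4 in sham PN (log2 difference 1.38, SE 0.36, adjusted p = 0.0172), and Slc1a3 1.63-fold higher, at 703 ± 54.9 against 432 ± 24.0 CPM (log2 difference 0.70, SE 0.16, adjusted p = 0.00882). The call for Slc1a2 was lost without sham LN replicate 2, sham PN replicate 1 or sham PN replicate 3 (adjusted p = 0.0573, 0.0667 and 0.0687). In those fits 14.3%, 15.2% and 14.4% of all tested genes passed.

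Lower in sham LN were Aqp4 at 335 ± 24.0 against 756 ± 129 CPM (log2 difference -1.18, SE 0.26, adjusted p = 0.00731), Aldh1l1 (-1.01, SE 0.20, adjusted p = 0.00365) and Fgfr3 at 144 ± 7.07 against 246 ± 29.8 CPM (-0.78, SE 0.15, adjusted p = 0.00369). Gja1 (-0.067, SE 0.18, adjusted p = 0.834) and Glul (0.070, SE 0.15, adjusted p = 0.785) overlapped between the shams, and the sign for Gja1 turned under other settings. Gjb6 and Acacb lay lower in every sham LN library (-0.75 and -0.89) without passing (adjusted p = 0.268 and 0.155). Both passed when the sham libraries were fitted alone, where 39.9% of all tested genes did, against 21.3% in the fit of all libraries. These sham libraries also enter the stroke comparisons. In the order of group means Aqp4 ran from sham PN over PI (616 ± 167 CPM) and sham LN to MCAO (242 ± 88.2), whereas Slc1a2 ran from sham LN over MCAO (201 ± 87.2) and sham PN to PI (115 ± 49.4). Neighbours overlapped in these orders except PI with sham LN for Aqp4 and sham LN with MCAO for Slc1a2.

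The wider set of astrocyte genes was read beside the 9. Of 24 other general astrocyte markers, 9 fell and 0 rose after MCAO, and 15 did not pass (median log2 change -0.76). Their summed level was 11584 to 13680 CPM in sham LN and 7095 to 10120 CPM after MCAO, with MCAO replicate 2 the highest of its group. Gpr37l1, an astrocyte receptor, fell from 348 ± 42.2 to 140 ± 72.8 CPM (log2 change -1.32, SE 0.30, adjusted p = 0.0134). Id4, an inhibitor of DNA binding by helix-loop-helix factors, fell from 40.6 ± 8.71 to 14.5 ± 7.49 CPM (log2 change -1.49, SE 0.31, adjusted p = 0.00983), and Atp13a4, a transport ATPase, from 11.2 ± 1.45 to 3.77 ± 2.89 CPM (log2 change -1.58, SE 0.41, adjusted p = 0.024). There were 18 that fell without MCAO replicate 2, and there were 2 without sham LN replicate 1, 5 without sham LN replicate 2 and 1 without the unnumbered library. Of all tested genes 18.8%, 1.15%, 2.43% and 1.42% passed as lower in those fits in turn. After PI 0 of the 24 passed, with any 1 library left out as well.

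Reactive astrocyte markers went the other way. After MCAO 20 of 21 tested rose, at a median log2 change of 4.31, and after PI 10 of 21 rose, at 2.57, and 0 fell in either. With 1 library left out the numbers ran from 15 to 20 after MCAO and from 1 to 13 after PI, with 3, 2 and 1 without sham PN replicates 1, 2 and 3. In those sham PN fits 1.04%, 0.301% and 0.0347% of all tested genes passed after PI. Some of the reactive markers are also expressed by myeloid and vascular cells. Markers of infiltrating myeloid cells rose in 11 of 11 after MCAO and 7 of 11 after PI, and endothelial markers passed in 0 of 9 in either. Of 11 neuronal markers 1 (Eno2) rose and 0 fell after MCAO, where their summed level was 3388 to 5863 CPM against 5422 to 7077 in sham LN, with overlap. After PI 0 of them passed, and their summed level was 2979 to 4774 CPM against 5754 to 6342 in sham PN. Of 8 markers of oligodendrocyte precursors 3 fell after MCAO (summed level 228 to 317 CPM against 416 to 478) and 1 after PI (446 to 501 CPM against 568 to 790). Of 11 microglial markers 1 rose and 1 fell after MCAO, and 4 rose after PI (610 to 1810 CPM against 428 to 480). The part of these cell types in the members' values was not tested.

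**Figure D5:**
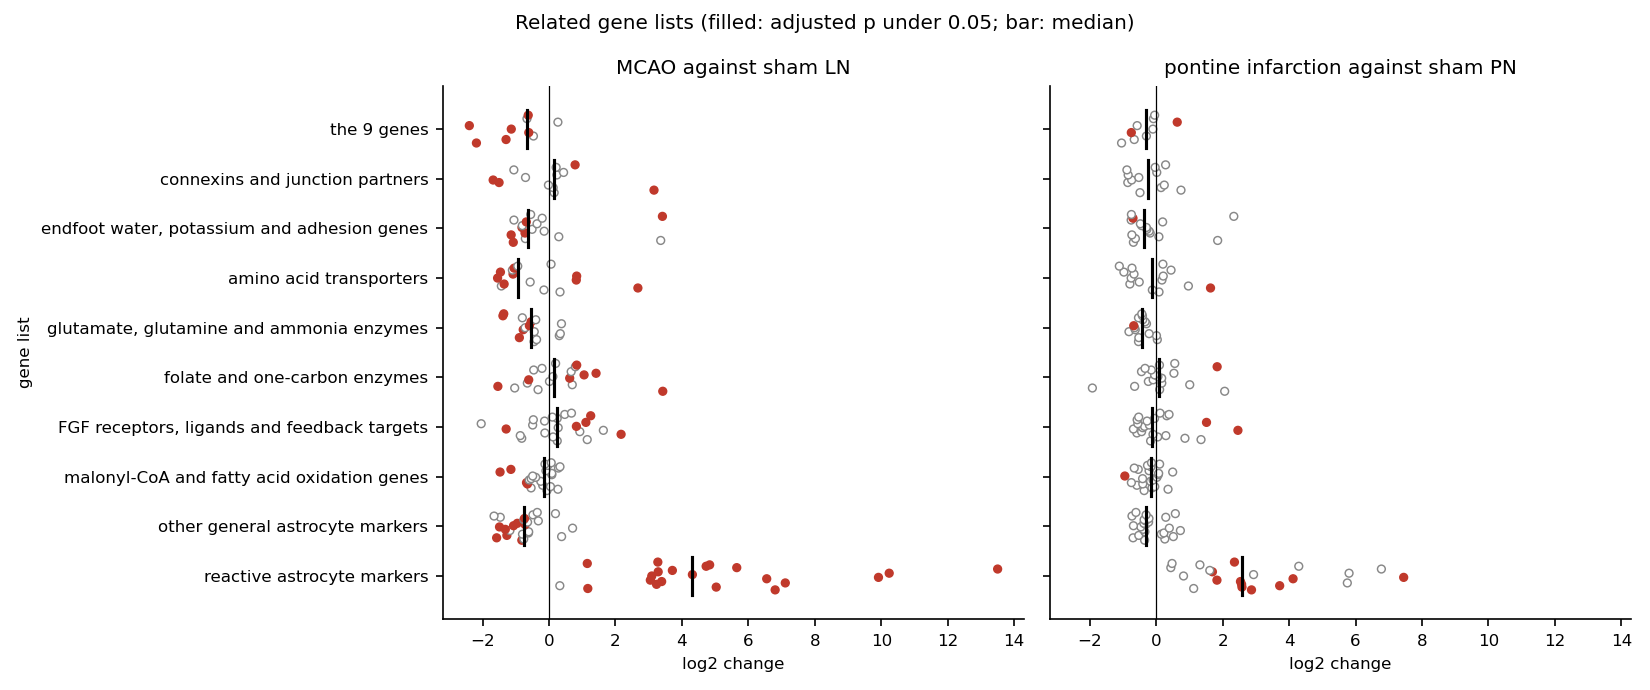
Log2 change of each tested gene (x axis) after MCAO (left) and PI (right), in rows for the 9 genes, the 8 lists around them and the reactive astrocyte markers, with a point per gene, filled where the adjusted p is under 0.05, and a vertical bar at the median. The reactive markers have medians of 4.31 and 2.57, while the 9 genes and the other general astrocyte markers have medians of -0.66 and -0.76 after MCAO.

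The genes most like each member over the 12 libraries were found by the root mean square difference of log2 CPM, each gene centred on its own mean. Fgfr3 had the closest neighbours, Scd, a desaturase of fatty acids, at 0.0982 and Dennd5a at 0.113, while its own spread about its mean was 0.514. Slc1a3 (own spread 0.340) was nearest to Fam174b at 0.113 and Ap4m1 at 0.124. Gja1 (0.537) was nearest to Olfml1 and LOC498601, both at 0.178, Aldh1l1 (0.874) to Gamt at 0.153, which makes creatine, and to Agmo at 0.165, and Aqp4 (0.727) to Fam149a at 0.164 and Trpm3 at 0.206. Slc1a2 (0.748) was nearest to Fat3 at 0.175 and Sgtb at 0.182, and Glul (0.268) to Txndc12 and Flot1, both at 0.156.

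Gjb6 and Acacb had neighbours at larger distances, but on a wider spread of their own, and shared one. The distances were not scaled to a gene's own spread, so they do not rank the members by likeness of profile. Gjb6 (1.46) was nearest to Phkg1, a subunit of phosphorylase kinase, at 0.232 and to Tril at 0.376, and Acacb (1.26) to Tril at 0.313 and Acot11 at 0.323. Among the 9 genes themselves, pairs in which each was the other's nearest member were Gja1 with Fgfr3 (0.345), Aqp4 with Aldh1l1 (0.395), Gjb6 with Acacb (0.472) and Slc1a3 with Glul (0.516). The farthest pair was Gjb6 with Slc1a2 (1.72). These distances are descriptions over 4 groups that differ in stroke and in markers of region, and they carry no test.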

How the data were processed

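The deposited table holds unscaled gene counts of 12 libraries, all whole numbers. Per the submitters' processing notes, HISAT2 (no version named) was used and the genome build was Rnor_6.0. How reads were counted, with which annotation and whether by strand, is not given in the sources used here, so reads of overlapping or antisense genes may be mixed. Of the column codes 1 matched no sample title and was placed by group. Totals ran from 19805815 to 40400676 counts.

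The tests were run in edgeR 4.0.16 under R 4.3.3 (quasi-likelihood test, TMM scaling, all 12 libraries in 1 fit, filterByExpr with minimum count 10 and minimum total 15), which kept 17008 of 37209 symbols. The common biological coefficient of variation was 0.302. Tests are two-sided, and p-values were Benjamini-Hochberg adjusted over all tested genes at 0.05. Log2 values of single libraries used a prior count of 2. The fit was tested on simulated data. Alternatives were other scalings and filters, limma 3.58.1 (voom), DESeq2 1.42.0, the compared libraries alone, a replicate block and leaving out each library. Counts over the gene lists with 1 library left out were added after seeing the data.

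The 9 genes and the 22 lists (8 of related genes, 14 of markers) were chosen with earlier results of these data known. From each related list, up to 3 genes per stroke comparison were named, those with the largest changes past the threshold and a mean of at least 5 CPM in one group, and for each of the 9 genes the 2 nearest profiles. Some genes that this rule selects are counted but not reported here by name. Promoter windows came from RefSeq (GRCr8), matched by symbol for 9 of 9 genes. No coordinates of the files' own build were used. No 2 libraries of a group agreed within sampling noise (chi-square per gene 13.5 to 176).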

Additional observations from a re-analysis of the deposited data

How the results depend on the processing

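Over 585 recomputed changes of the 9 genes, 535 kept their direction and their side of the threshold, 23 lost the threshold, 11 gained it and 16 changed sign, and no called gene changed sign. After MCAO all tested genes called numbered 3163, and 1413 with the replicate block, 1354 on the compared libraries alone and 1136 to 6170 with 1 library left out. Of the 9 genes 6 were called, and 3 on the compared libraries alone (without Gjb6, Slc1a3 and Fgfr3) and 4 to 8 with 1 library left out. After PI 694 genes were called, and 1738 by DESeq2, 315 by limma voom and 6 to 965 with 1 library left out, and of the 9 genes 2, 1 with the replicate block (Glul at an adjusted p of 0.0611) and 0 to 2 with 1 library left out. For the difference between the strokes 0 were called, and 1 without a filter, 238 by DESeq2 and 0 to 970 with 1 library left out, and of the 9 genes 1 by DESeq2 and 0 to 5 with 1 library left out. Between the shams 3625 were called, 6365 on the compared libraries alone and 2334 to 2662 with 1 library left out. The cause of these shifts was not tested. The sign turned for Slc1a3 after PI (0.033 with upper-quartile scaling, 0.12 with library totals alone, 0.048 without a filter, 0.054 on the compared libraries alone), Gja1 after PI (0.066 with library totals alone) and Slc1a2 after PI (0.083, 0.0075 and 0.013 with library totals alone, without a filter and on the compared libraries alone, and -0.33 to 0.23 with 1 library left out). It also turned for the difference in Fgfr3 (-0.050 without a filter, -0.20 to 0.22 with 1 library left out) and Aqp4 (-0.69 to 0.064 with 1 library left out), and for Gja1 between the shams (0.040 without a filter, 0.013 on the compared libraries alone, -0.12 to 0.019 with 1 library left out). Library totals alone moved the median of all tested genes after PI from -0.08 to 0.08.

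Sham and stroke libraries share replicate numbers, but the correlation of their deviations was 0.104 and 0.0426 for MCAO with sham LN and 0.0483, 0.15 and 0.154 for PI with sham PN, so the numbers were not taken as pairs. The unnumbered MCAO library shares no number and did not inform the MCAO change under the replicate block. In PI with sham PN (and in sham LN with sham PN) each library correlated best with its own number, as did MCAO replicates 1 and 2 with sham LN, a hint from the data and not from the design. The largest correlation, 0.42, was between MCAO replicate 2 and PI replicate 2. Acacb had the lowest CPM of the 9 genes after MCAO, 0.967 to 3.06.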
